A study of Mus musculus with 8 samples.

Results

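Brown adipose tissue was profiled for the genes of the proteasome, the barrel-shaped protease that degrades proteins tagged with ubiquitin. The members were all probe sets whose gene symbol is Psma, Psmb, Psmc, Psmd or Psme followed by a number and nothing else, which gave 42 genes of 20405 named among 21115 probe sets. Membership was set by symbol and not by a measured value, though the gene family was chosen with earlier results of these data known. They comprised 5 immune subunits (Psmb8, Psmb9, Psmb10, Psme1 and Psme2) and 37 other subunits. Psmb5, the constitutive counterpart of Psmb8, was not analysed here, and Psmc3ip and Psme3ip1 were left out because their symbols go on with letters. The samples were 4 GRBATKO mice, which lack the glucocorticoid receptor in brown fat, and 4 control mice, which the labels call wild type and the design text calls Flox. All 8 mice were 16 to 20 weeks old when moved to 5 °C and stayed there for 1 week, so both groups were cold-exposed and no warm-housed mice were analysed here. The labels used here do not state which promoter drives the deletion, the sex of the mice or whether tissue was pooled.

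Several features of the samples bear on what follows. The labels conflict on the source: the tissue field gives brown fat and the extraction text speaks of macrophages from the peritoneum, while the brown fat gene Ucp1 lay between 12.97 and 13.07 log2 units on all 8 arrays. The targeted gene Nr3c1 fell in GRBATKO tissue to 7.74 ± 0.10 from 8.61 ± 0.08 (log2 intensity, SD, n = 4), a difference of -0.86 (SE 0.08, limma adjusted p = 0.00697). It was -0.94 without control 1 and control 4, where the limma adjusted p was 0.0624. Whether its probes lie inside the deleted exons is not stated, so this checks the labels only in part. Position codes place all control arrays in rows A and B and all GRBATKO arrays in rows C and D, so row and genotype cannot be told apart. The arrays of control 1 and control 4 stood apart: their 25th percentiles (log2) were 3.03 and 3.05, above the 2.84 to 2.90 of the remaining 6, and results that rest on these mice are also given without them. Tissue was measured in bulk, so fewer cells of a type and less RNA per cell cannot be told apart.

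The proteasome has a core of 4 stacked rings, the outer ones of alpha subunits (Psma genes) and the inner ones of beta subunits (Psmb genes), where proteins are cut. A regulatory cap of ATPases (Psmc genes) and non-ATPase subunits (Psmd genes) binds ubiquitin chains, unfolds the substrate and feeds it into the core. Under interferon gamma and in immune cells, the catalytic subunits encoded by Psmb5, Psmb6 and Psmb7 are replaced by those encoded by Psmb8, Psmb9 and Psmb10, and a different cap, PA28 (Psme1 and Psme2), can bind, which favours peptides for display on MHC class I molecules. In mouse brown fat, cold raises proteasome activity through the transcription factor NFE2L1, and glucocorticoids are known to raise ubiquitin and proteasome genes in wasting muscle.

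No proteasome gene passed the test between genotypes. None of the 42 members reached an adjusted p of 0.05 over all probe sets, by limma with Benjamini-Hochberg adjustment, where 0.0237% of all probe sets did, and the lowest adjusted p among the members was 0.515. At an unadjusted p under 0.05 there were 3 members, or 7.14%, against 8.62% of all probe sets. These were Psme1 and Psma3, higher in GRBATKO mice (background 4.22%), and Psmd9, lower (background 4.40%). Groups were fully separate in 3 members (7.14%), against 5.64% of all probe sets: Psme1 and Psmc6 with GRBATKO mice higher (background 3.22%) and Psmd9 with them lower (background 2.42%). Both shares lay near the background.

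The differences were small as well as few. The log2 difference (GRBATKO minus control) ran from -0.24 for Psmd9 to 0.24 for Psma3, with 22 members (52.4%) higher against 49.4% of all probe sets, 19 lower and Psma5 equal to 4 decimals. Psma2 and Psmb7, at 0.00 when rounded, are among the 19. The median was 0.01 over the members and 0.00 over all probe sets. The 95% intervals of the 42 differences spanned 0.694 to 1.40 times the control level, and none reached past a 1.5-fold change in either direction, while 10.8% of all probe sets had an interval that did. These limits apply to the deposited intensities, in which a change of a dim gene may be understated. The median SD between mice of a group was 0.09 for the members and 0.15 for all probe sets. Without control 1 and control 4, a choice made after seeing the data, the intervals widened to between 0.629 and 1.48 times control, and those of Psmb8 and Psmb9 reached past 1.5-fold on the lower side.

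**Figure D1:**
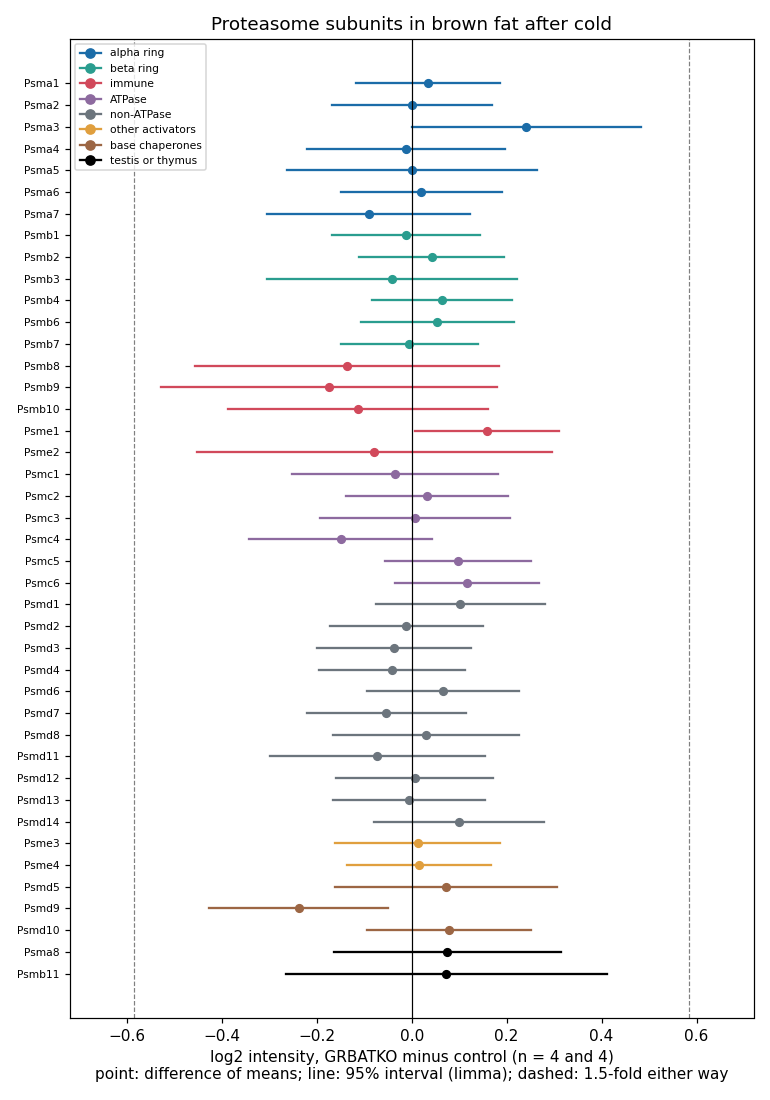
Difference between 4 GRBATKO and 4 control mice for each of the 42 members in log2 intensity, with 95% intervals from limma, ordered and coloured by role; dashed lines mark a 1.5-fold change. Every interval lies inside the dashed lines, and those of Psmd9, Psme1 and Psma3 exclude 0.

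The immune subunits except Psme1 varied more between mice than the median of the other subunits. The SD within groups had a median of 0.23 over the 5 immune subunits and 0.08 over the 37 others. It was 0.19 to 0.28 for Psmb8, Psmb9, Psmb10 and Psme2, and 0.05 for Psme1. Psmb8, Psmb9 and Psmb10 were also dimmer than most other subunits. The dim others Psma5, Psma8 and Psmb11 had SDs of 0.18, 0.16 and 0.245. The part of brightness in the spread was not tested. The median difference of the 5 immune subunits was -0.11, against 0.01 for the others. Psmb8, Psmb9, Psmb10 and Psme2 were lower and Psme1 higher in GRBATKO mice. Only Psme1 among these 5 had an unadjusted p under 0.05 by limma with all 8 mice. Without control 1 and control 4, Psmb8 and Psmb9 did as well, and without control 4 alone Psmb9 did and Psme1 did not. The share of all probe sets under that p was not taken in these fits. No test was made of the immune subunits against the others.

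Psmb9 codes for the immune subunit that replaces the caspase-like one encoded by Psmb6. Its log2 intensity was 5.93, 6.18, 5.84 and 5.36 in control mice 1 to 4 and 5.82, 5.54, 5.70 and 5.55 in GRBATKO mice 1 to 4. Control 2 was the highest and control 4 the lowest of all 8 mice, so the groups overlapped fully. The difference was -0.17 (SE 0.16, 95% interval -0.53 to 0.18, limma adjusted p = 0.781). It was -0.06 without control 2, and -0.35 without control 1 and control 4 (limma adjusted p = 0.543).

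Psmb9 lies in the MHC region of chromosome 17 beside Tap1, which codes for a subunit of the transporter that carries proteasome products to MHC class I. In the order of protein-coding genes the run is Psmb9, Tap1, Psmb8 and Tap2. In RefSeq (GRCm38.p6) the starts of Psmb9 and Tap1 point away from each other, 226 bases apart, and the promoter windows of both genes (250 bases before to 50 after the start) share 275 bases. The window of Psmb9, on the minus strand at chr17:34187281-34187580, is shown because both genes read from it. Capitals mark a CCAAT box, read here on its other strand, that begins 8 bases before the start.
Psmb9: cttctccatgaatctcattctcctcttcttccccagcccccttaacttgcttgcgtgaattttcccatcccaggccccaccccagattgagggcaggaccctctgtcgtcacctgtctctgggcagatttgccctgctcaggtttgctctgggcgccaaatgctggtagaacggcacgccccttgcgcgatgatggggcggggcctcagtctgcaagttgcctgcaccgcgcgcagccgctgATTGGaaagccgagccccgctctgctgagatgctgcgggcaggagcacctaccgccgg

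Tap1 shared its highest mouse with Psmb9, while the order of the others differed. It was 5.75, 6.52, 6.14 and 5.58 in control mice 1 to 4 and 6.0, 5.96, 5.87 and 5.46 in GRBATKO mice 1 to 4. Control 2 was again the highest, and the lowest mice were GRBATKO 4 and control 4. The difference was -0.18 (SE 0.20, limma adjusted p = 0.831), or 0.00 without control 2 and -0.51 without control 1 and control 4. Tap1 differed by -0.01 between the arrays in column 5 and by -0.34 between those in column 7, each holding 2 mice a group.

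Psmb8 codes for the immune chymotrypsin-like subunit. It was 5.84, 6.36, 6.05 and 5.71 in control mice 1 to 4 and 5.64, 6.02, 5.91 and 5.84 in GRBATKO mice 1 to 4. Control 2 was once more the highest mouse and GRBATKO 1 the lowest. The difference was -0.14 (SE 0.14, 95% interval -0.46 to 0.18, limma adjusted p = 0.808), or -0.01 without control 2 and -0.35 without control 1 and control 4. Its RefSeq promoter window (GRCm38.p6, plus strand, chr17:34197945-34198244) is shown because it holds, in capitals, a match to the site bound by STAT dimers under interferon gamma, TTCNNNGAA, which begins 97 bases before the start.
Psmb8: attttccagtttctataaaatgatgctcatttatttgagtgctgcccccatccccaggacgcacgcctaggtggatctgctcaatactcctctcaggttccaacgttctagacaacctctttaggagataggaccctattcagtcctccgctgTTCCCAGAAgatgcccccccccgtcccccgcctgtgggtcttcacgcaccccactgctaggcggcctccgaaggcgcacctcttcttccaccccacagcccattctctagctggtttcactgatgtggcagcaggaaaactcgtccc

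Psmb10 codes for the immune trypsin-like subunit, which replaces the one encoded by Psmb7. It was 5.96, 6.31, 6.27 and 5.94 in control mice 1 to 4 and 6.23, 5.79, 6.02 and 5.98 in GRBATKO mice 1 to 4. Control 2 was the highest here too, close to control 3 and GRBATKO 1. The difference was -0.11 (SE 0.12, 95% interval -0.39 to 0.16, limma adjusted p = 0.816). It lay at 0.01 between the arrays in column 5, at -0.24 between those in column 7, and at -0.28 without control 1 and control 4.

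All 3 immune catalytic genes were thus highest in control 2, and their differences between genotypes depended on which control mice were counted. Leaving out control 2 brought them to between -0.06 and -0.01, and leaving out control 1 and control 4 to between -0.35 and -0.28, with no adjusted p under 0.05 in either case.

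**Figure D2:**
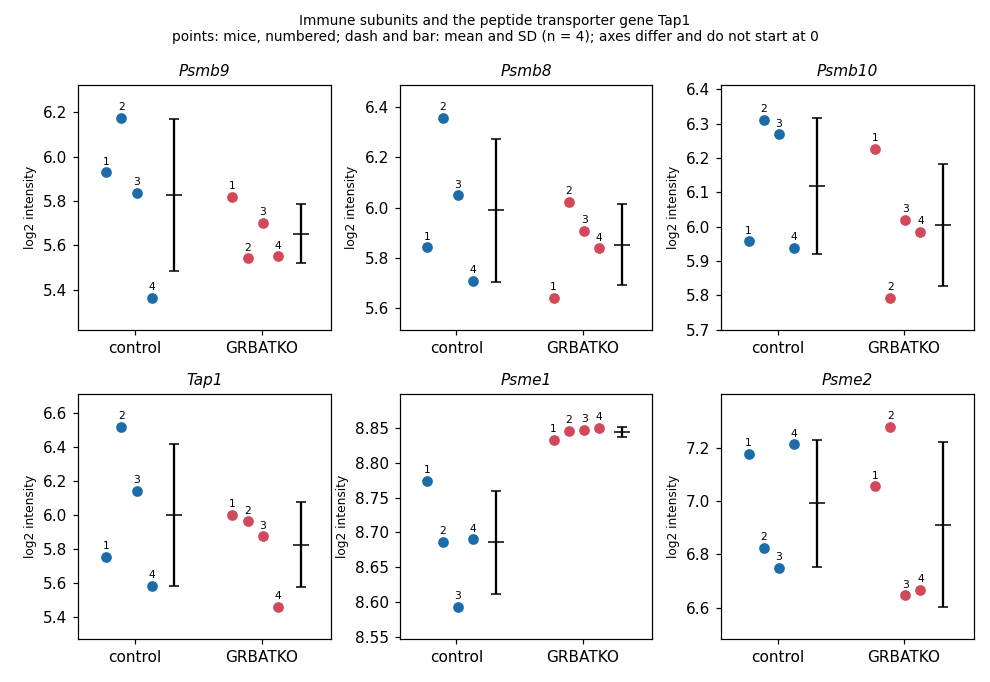
Log2 intensity in each numbered mouse for the 5 immune subunits and Tap1, with group means and SD (n = 4). Control 2 is the highest mouse for Psmb9, Psmb8, Psmb10 and Tap1, while the 4 GRBATKO mice lie above all control mice for Psme1.

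Psme1 and Psme2 code for the alternating subunits of the PA28 ring. Psme1 was 8.77, 8.69, 8.59 and 8.69 in control mice 1 to 4 and 8.83, 8.85, 8.85 and 8.85 in GRBATKO mice 1 to 4. The 4 GRBATKO mice lay between 8.83 and 8.85, above every control mouse. The difference was 0.16 (SE 0.07, 95% interval 0.01 to 0.31), or 1.12 times control, and it did not pass (limma adjusted p = 0.563; two-sided exact permutation test, p = 0.0286, the smallest that 4 against 4 allows). It was 0.16 in either array column, 0.13 without control 3 and 0.20 without control 1 and control 4. Its unadjusted p by limma stayed under 0.05 without control 1, but not without any other single mouse.

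Psme2 was 7.18, 6.82, 6.75 and 7.21 in control mice 1 to 4 and 7.05, 7.28, 6.65 and 6.67 in GRBATKO mice 1 to 4. Control 1, control 4, GRBATKO 1 and GRBATKO 2 formed a high set and the other 4 mice a low one, so mice of both genotypes lay at either end. The difference was -0.08 (SE 0.17, 95% interval -0.45 to 0.29, limma adjusted p = 0.911), and it was 0.12 without control 1 and control 4. The genes are near neighbours on chromosome 14, with Emc9 between them. The RefSeq promoter window of Psme1 (GRCm38.p6, plus strand, chr14:55578244-55578543) is shown because Psme1 was the immune member whose groups did not overlap. Capitals mark a match, on the other strand, to the interferon regulatory factor site (GAAA, any 2 bases, GAAA), which begins 9 bases past the start.
Psme1: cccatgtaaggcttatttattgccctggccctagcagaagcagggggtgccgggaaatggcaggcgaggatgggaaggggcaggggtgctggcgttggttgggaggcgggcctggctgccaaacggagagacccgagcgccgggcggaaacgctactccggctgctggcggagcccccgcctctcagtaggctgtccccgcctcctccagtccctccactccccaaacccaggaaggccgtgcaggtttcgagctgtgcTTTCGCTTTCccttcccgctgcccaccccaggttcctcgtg

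The constitutive catalytic genes Psmb6 and Psmb7 varied less between mice than their immune counterparts, on the log2 scale. Psmb6, for the caspase-like subunit, was 10.08, 9.93, 10.06 and 9.93 in control and 10.04, 9.98, 10.08 and 10.12 in GRBATKO mice 1 to 4, a difference of 0.05 (SE 0.07, 95% interval -0.11 to 0.21, limma adjusted p = 0.852). Psmb7, for the trypsin-like subunit, was 9.97, 9.85, 9.90 and 9.92 in control and 9.91, 9.94, 9.90 and 9.87 in GRBATKO mice 1 to 4. Its difference was 0.00 (SE 0.06, 95% interval -0.15 to 0.14, limma adjusted p = 0.987), with the smallest SD within groups, 0.04, of all 42 members. Within each mouse, log2 Psmb9 minus log2 Psmb6 averaged -4.17 ± 0.33 in control and -4.40 ± 0.14 in GRBATKO mice (SD, n = 4), and log2 Psmb10 minus log2 Psmb7 averaged -3.79 ± 0.24 and -3.90 ± 0.19. These gaps compare probe sets of different brightness, so their shift between genotypes, -0.23 and -0.11, can be read but not their size. Both shifts were smaller than the SD among control mice. They were -0.09 and -0.03 without control 2 and -0.41 and -0.31 without control 1 and control 4.

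Of the other beta ring genes, which have no known cutting site, Psmb4 and Psmb3 stood at the ends. Psmb4 was 7.85, 7.91, 7.93 and 7.88 in control and 7.91, 7.94, 7.94 and 8.04 in GRBATKO mice 1 to 4, a difference of 0.06 (SE 0.07, limma adjusted p = 0.801). Psmb3 was 8.78, 8.56, 8.57 and 9.0 in control and 8.57, 8.81, 8.80 and 8.56 in GRBATKO mice 1 to 4. Control 1 and control 4 were high among control mice for Psmb3, and its difference of -0.04 (SE 0.12, limma adjusted p = 0.938) was 0.12 without them. Psmb1 and Psmb2 differed by -0.01 and 0.04.

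In the alpha ring, which gates entry to the core, Psma3 differed most. It was 7.20, 7.36, 7.57 and 7.47 in control and 7.76, 7.67, 7.72 and 7.41 in GRBATKO mice 1 to 4. GRBATKO mice 1 to 3 lay above all control mice, while GRBATKO 4 lay between control 2 and control 4. The difference was 0.24 (SE 0.11, 95% interval 0.00 to 0.48, limma adjusted p = 0.579), and it was 0.36 in array column 5 and 0.13 in column 7. It was 0.18 without control 1, the lowest mouse, and 0.18 without control 1 and control 4. In neither of these fits was its unadjusted p by limma under 0.05.

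At the lower end of that ring was Psma7, at 8.26, 8.53, 8.21 and 8.28 in control and 8.11, 8.29, 8.16 and 8.35 in GRBATKO mice 1 to 4. Its difference of -0.09 (SE 0.09, limma adjusted p = 0.808) rested largely on control 2, and it was -0.02 without that mouse. Psma1, Psma2, Psma4, Psma5 and Psma6 differed by -0.01 to 0.03. Psma5 was the only one of the 30 core and cap subunits below the array median on every array, between 3.60 and 4.09, and a change in so dim a probe set could be understated.

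The 6 ATPases of the cap, which pull substrates into the core, split at the ends of their range. Psmc6 was 8.88, 8.97, 8.87 and 8.99 in control and 9.10, 8.99, 9.04 and 9.04 in GRBATKO mice 1 to 4. The groups did not overlap, though GRBATKO 2 and control 4 nearly touched, and the difference was 0.12 (SE 0.07, 95% interval -0.04 to 0.27, limma adjusted p = 0.674; two-sided exact permutation test, p = 0.0286). It was 0.19 in array column 5 and 0.04 in column 7. Psmc4 was 9.04, 9.28, 9.14 and 9.06 in control and 8.92, 9.07, 8.85 and 9.07 in GRBATKO mice 1 to 4. Its difference of -0.15 (SE 0.09, 95% interval -0.34 to 0.04, limma adjusted p = 0.672) was -0.23 without control 1 and control 4. Psmc1, Psmc2, Psmc3 and Psmc5 differed by -0.03 to 0.10.

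Among the 11 non-ATPase cap subunits none had an unadjusted p under 0.05 and none separated the groups. Psmd1, a scaffold of the cap's base, was 9.24, 9.18, 9.02 and 9.29 in control and 9.21, 9.35, 9.27 and 9.30 in GRBATKO mice 1 to 4. Its difference of 0.10 (SE 0.08, limma adjusted p = 0.747) was the largest higher one, 0.05 without control 3, the lowest mouse, and 0.18 without control 1 and control 4. Psmd11, a subunit of the cap's lid, was 9.70, 9.80, 9.55 and 9.94 in control and 9.57, 9.74, 9.82 and 9.58 in GRBATKO mice 1 to 4. Its difference of -0.07 (SE 0.10, limma adjusted p = 0.858) was 0.00 without control 1 and control 4. The remaining 9 ran from -0.05 for Psmd7 to 0.10 for Psmd14, the deubiquitinase that removes ubiquitin chains as the substrate enters.

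Psmd9 codes for a chaperone that helps assemble the base of the cap and is not part of the finished particle. It was 6.40, 6.34, 6.53 and 6.36 in control and 6.17, 6.01, 6.25 and 6.26 in GRBATKO mice 1 to 4. Every GRBATKO mouse lay below every control mouse. The difference was -0.24 (SE 0.08, 95% interval -0.43 to -0.05), or 0.848 times control, and it did not pass (limma adjusted p = 0.515; two-sided exact permutation test, p = 0.0286). It was -0.26 in array column 5 and -0.22 in column 7, -0.20 without control 3 and -0.27 without control 1 and control 4. The other base chaperones were Psmd10 (gankyrin) and Psmd5, which differed by 0.08 and 0.07. Psmd10 was 6.94, 6.99, 7.09 and 7.02 in control and 6.96, 7.21, 7.07 and 7.12 in GRBATKO mice 1 to 4 (SE 0.08, limma adjusted p = 0.798), with overlap of the groups.

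The RefSeq promoter window of Psmd9 (GRCm38.p6, plus strand, chr5:123227940-123228239) is shown because Psmd9 was the member lowest in GRBATKO mice. Capitals mark a match to the interferon regulatory factor site that begins 159 bases before the start and a match to TGACNNNGC, the core of the antioxidant response element that NFE2L1 and NFE2L2 bind, that begins 31 bases before it.
Psmd9: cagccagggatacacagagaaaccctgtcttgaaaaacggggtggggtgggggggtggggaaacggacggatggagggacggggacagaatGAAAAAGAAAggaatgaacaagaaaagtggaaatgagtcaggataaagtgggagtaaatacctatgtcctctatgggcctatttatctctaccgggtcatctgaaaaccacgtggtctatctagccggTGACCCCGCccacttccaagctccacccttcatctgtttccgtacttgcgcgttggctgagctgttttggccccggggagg

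Promoter windows were found for 35 of the 42 members, 38 windows in all, and were searched on both strands beside all 32851 windows of the table. TGACNNNGC was in 5 member windows (13.2%) and in 12.4% of all windows. The 5 belonged to Psmb6, Psmc6, Psmd12, Psmd9 and Psme4. The interferon regulatory factor site was in 4 (10.5%) against 3.44%, those of Psmb3, Psmd4, Psmd9 and Psme1. TTCNNNGAA was in 2 (5.26%) against 8.30%, those of Psmb8 and Psmd2, and CCAAT in 14 (36.8%) against 37.4%. A match says only that the letters are present. Psma8, Psmb1, Psmb2, Psmb7, Psmc3, Psmd3 and Psmd7 had no entry.

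**Figure D3:**
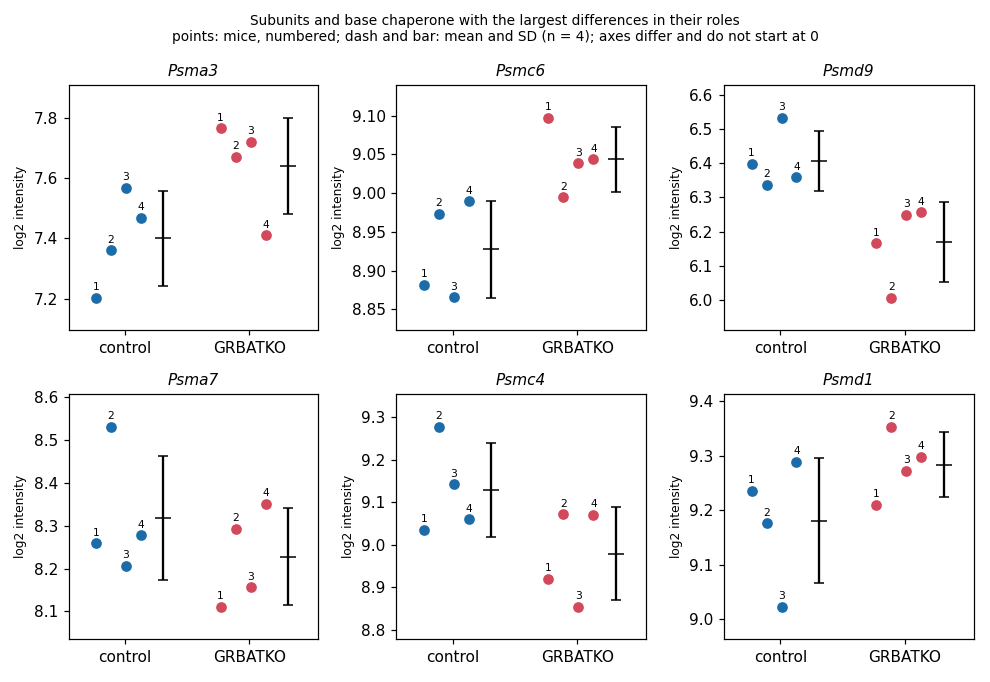
Log2 intensity in each numbered mouse for the alpha ring, ATPase and non-ATPase members and the base chaperone with large differences, with group means and SD (n = 4). Psmd9 is lower and Psmc6 higher in all 4 GRBATKO mice, and Psma3 is higher in 3 of them.

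The 2 other activators and the 2 members known from testis and thymus did not separate the genotypes. Psme4 (PA200), a single-chain activator, was 8.81, 8.94, 8.91 and 8.85 in control and 8.90, 8.91, 8.83 and 8.93 in GRBATKO mice 1 to 4, a difference of 0.01 (SE 0.07, limma adjusted p = 0.962). Psme3, the nuclear relative of PA28, also differed by 0.01. Psma8, the testis form of an alpha subunit, lay between 2.37 and 2.81, and Psmb11, the thymus beta subunit, between 2.80 and 3.58. Both were below the array median on all 8 arrays and differed by 0.07 (limma adjusted p = 0.860 and 0.910).

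Mice differed little in the 30 core and cap subunits as a set. The median deviation from each gene's mean over the 8 mice ran from -0.02 in GRBATKO 1 to 0.04 in GRBATKO 4. In the 5 immune subunits the same median ran from -0.12 in control 4 to 0.25 in control 2. Control 2 was the highest mouse for 10 of the 42 members, GRBATKO 4 for 9 and GRBATKO 2 for 8. Control 1 and control 3 were the lowest for 10 each. The same counts over all probe sets were not taken.

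**Figure D4:**
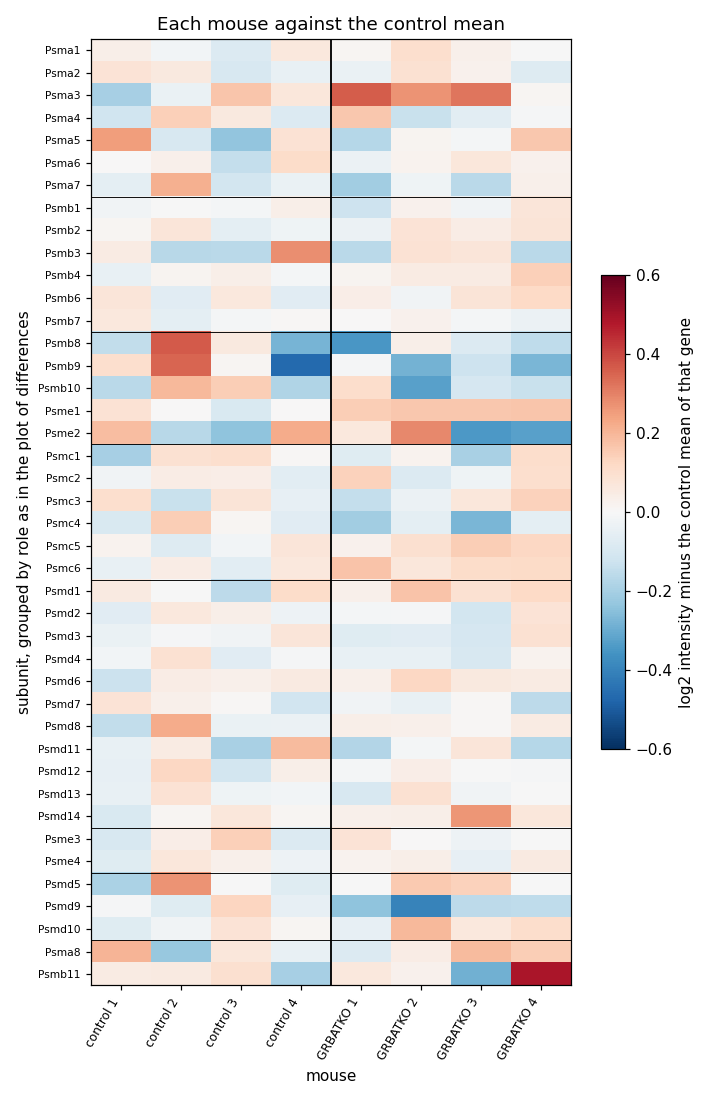
Log2 intensity of each of the 42 members in each of the 8 mice minus that gene's control mean, grouped by role, with red above and blue below the control mean. The immune rows other than Psme1 hold stronger colours in both genotypes, with control 2 red and control 4 blue for Psmb8 and Psmb9. Most core and cap rows stay pale.

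Genes that build, feed or regulate the proteasome did not pass either. None of the 11 assembly factors and regulators measured passed by limma over all probe sets, and none had an unadjusted p under 0.05. Pomp, the maturation factor of the core, was 8.50, 8.51, 8.52 and 8.49 in control and 8.48, 8.58, 8.51 and 8.48 in GRBATKO mice 1 to 4, a difference of 0.01 (SE 0.06, limma adjusted p = 0.986). The inhibitor gene Psmf1 differed by -0.22 (SE 0.12, limma adjusted p = 0.657), with control 2 highest at 7.96, by -0.13 without that mouse and by -0.42 without control 1 and control 4. Ecpas, an adaptor of the cap, and Psmg2, a chaperone of the alpha ring, differed by 0.10 (SE 0.07) and 0.11 (SE 0.10), the second of which was -0.03 without control 1 and control 4.

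Of 12 measured ubiquitin receptors, deubiquitinases and shuttles 9 (75.0%) had higher means in GRBATKO mice, against 49.4% of all probe sets. None passed, and 2 (16.7%) had an unadjusted p under 0.05 by limma, against 8.62%. Uchl5, a deubiquitinase bound to the cap, was 7.09, 7.12, 7.11 and 7.09 in control and 7.27, 7.16, 7.31 and 7.25 in GRBATKO mice 1 to 4. The groups did not overlap, as in 5.64% of all probe sets, and the difference was 0.15 (SE 0.07, limma adjusted p = 0.573). Ubqln2, a shuttle for ubiquitin-tagged proteins, differed by 0.22 (SE 0.09, limma adjusted p = 0.563), and Sem1, the smallest cap subunit, by 0.11 (SE 0.07). Of the list of ubiquitin genes and activating enzymes only Uba6 was analysed here, at 0.12 (SE 0.08), or 0.02 without control 1 and control 4.

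The NFE2L1 pathway list had 11 measured genes, with 5 (45.5%) higher, against 49.4% of all probe sets, 6 lower and none past the threshold. Nfe2l1 was 9.12, 9.33, 9.31 and 9.28 in control and 9.33, 9.39, 9.28 and 9.31 in GRBATKO mice 1 to 4. Apart from the low control 1 the mice lay close together, and the difference was 0.06 (SE 0.07, limma adjusted p = 0.826), or 0.01 without control 1 and control 4. Nfe2l2 (NRF2) differed by 0.07 (SE 0.10), or -0.04 without those mice. In this list 1 gene (9.09%) had an unadjusted p under 0.05 by limma, against 8.62% of all probe sets. It was Btrc, a subunit of a ubiquitin ligase that marks both factors, at 0.24 (SE 0.10, limma adjusted p = 0.561). Its groups did not overlap, as in 5.64% of all probe sets. Ngly1, which strips sugars from NFE2L1, differed by -0.11 (SE 0.07), and its partner gene Mafg by -0.09 (SE 0.08). These values are of RNA, while NFE2L1 is known to be controlled largely as a protein.

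Ubiquitin ligases known from muscle wasting went both ways, 4 higher and 4 lower of 8, with none past the threshold and 2 (25%) at an unadjusted p under 0.05 by limma, against 8.62% of all probe sets. Fbxo31, a subunit of a cullin ligase, was 6.72, 7.40, 7.12 and 7.04 in control and 6.73, 6.70, 6.63 and 6.71 in GRBATKO mice 1 to 4. Control 1 lay among the GRBATKO mice and the other control mice above them, for a difference of -0.38 (SE 0.13, limma adjusted p = 0.494), or -0.57 without control 1 and control 4. Fbxo40, a muscle ligase, differed by -0.25 (SE 0.11) and was highest in control 3, and Nedd4 by 0.14 (SE 0.07), or 0.07 without control 1 and control 4.

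Skeletal muscle markers differed widely between mice of a group. Of 10 markers 9 were lower in GRBATKO mice, with a median difference of -0.73, and none passed or had an unadjusted p under 0.05 by limma. The summed intensity of all 10 of 10 markers ran from 114.9 to 2843 in control and from 111.2 to 797 in GRBATKO mice, with control 3 and GRBATKO 4 the highest of their groups and none of the markers at 0. Their part in the result for Fbxo40, and in that for Psmd9, which was also highest in control 3, was not tested.

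MHC class I and peptide loading genes, which the immune subunits serve, did not pass by limma in any of 14, and none had an unadjusted p under 0.05. Of the 14, 5 (35.7%) had higher means in GRBATKO mice, against 49.4% of all probe sets, and 9 had lower ones. Their differences ran from -0.36 to 0.21. B2m, the light chain of MHC class I, differed by -0.02 (SE 0.11), and Nlrc5, its transactivator, by -0.16 (SE 0.10, limma adjusted p = 0.685), or -0.08 without control 2 and -0.30 without control 1 and control 4. Control 2 was the highest mouse for Nlrc5 too, at 5.22 against 4.72 to 5.00 in the others. The loading chaperones Calr, Tapbpl and Pdia3 differed by 0.15 (SE 0.07), 0.21 (SE 0.12) and 0.13 (SE 0.08). Without control 1 and control 4 they differed by 0.15, 0.10 and 0.08.

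Of 17 measured interferon gamma pathway genes none passed by limma and 1 (5.88%) had an unadjusted p under 0.05, against 8.62% of all probe sets. That gene was Irf7, an interferon regulatory factor, at 5.43, 5.64, 5.53 and 5.23 in control and 5.01, 5.04, 4.89 and 5.01 in GRBATKO mice 1 to 4. The groups did not overlap, as in 5.64% of all probe sets, and the difference was -0.47 (SE 0.10, limma adjusted p = 0.236). Irf1, which drives immune subunits under interferon gamma, differed by 0.19 (SE 0.10, limma adjusted p = 0.664), and Irf8 by 0.24 (SE 0.12). Without control 1 and control 4 the value of Irf1 was 0.11. The part of these genes in the values of the immune subunits was not tested.

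**Figure D5:**
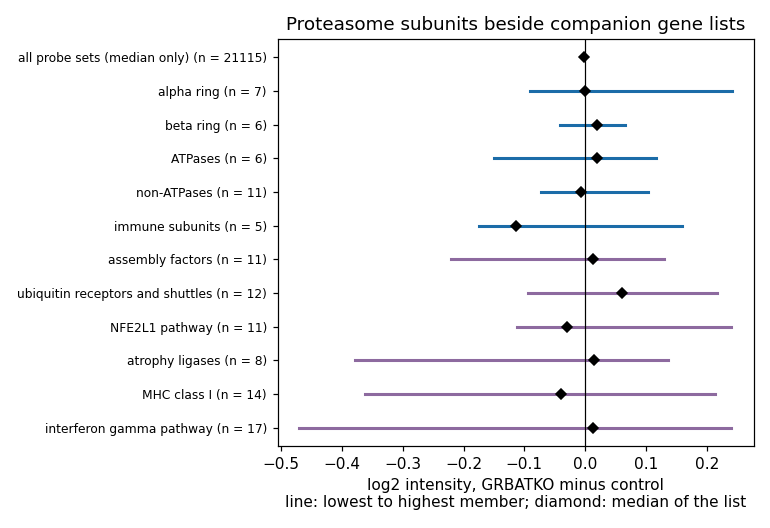
Lowest to highest log2 difference between GRBATKO and control mice among the measured genes of each proteasome role and each companion list, with the median as a diamond. The medians of the core and cap roles lie within 0.02 of 0, and the ring and cap ranges are narrower than those of the MHC class I and interferon lists.

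Immune cell markers, which mark cells that carry immune subunits, were measured in the same tissue. The summed intensity of 10 of 10 macrophage markers ran from 779 to 1209 in control and from 873 to 1429 in GRBATKO mice. Control 4 had the lowest sum and was also lowest in Psmb9, while GRBATKO 1 was lowest in Psmb8 and GRBATKO 2 in Psmb10. For 11 of 12 T and NK cell markers the sums ran from 152.7 to 184.2 and from 151.1 to 291.2. For 4 of 5 B cell markers they ran from 124.4 to 257.5 and from 124.3 to 477, with GRBATKO 2 the highest in both lists. A sum follows its brightest markers. Control 2 had the highest B cell sum of the control mice, while its mean log2 deviation over the B cell markers was -0.15. For 5 of 5 dendritic cell markers the sums ran from 65.2 to 74.0 and from 59.5 to 68.5, and for 5 of 5 neutrophil markers from 43.0 to 48.9 and from 45.3 to 50.6. None of these markers was at 0, although 7 of the T and NK cell markers, 4 dendritic and 5 neutrophil markers lay below the array median on every array. None passed the threshold by limma, and 2 of 35 (5.71%) had an unadjusted p under 0.05, against 8.62% of all probe sets. These were the macrophage gene Cd14, at 0.43 (SE 0.15), and the killer cell protease gene Gzma, at -0.20 (SE 0.07). Cd14 differed by 0.28 without control 4 and by 0.22 with a pseudocount of 16, which brought Gzma, a dim probe set, to -0.05. Their part in the values of the immune subunits was not tested. All 10 brown adipocyte markers were measured and none passed. Only Dio2 among them, the deiodinase that makes active thyroid hormone, had an unadjusted p under 0.05 by limma (-0.53, SE 0.21). The summed intensities of the 10 brown adipocyte markers were 29542 to 30901 in control and 30482 to 31311 in GRBATKO mice.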

How the data were processed

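Values were intensities from Affymetrix Mouse Gene 1.1 ST arrays, summarised by the authors with RMA, per the submitters' processing notes, and deposited on a linear scale, as their range shows. Neither the version of RMA nor a build or batch correction is stated, and no detection calls were used. The number of arrays limits the precision.

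From these, log2 was taken and all 21115 probe sets were fitted for genotype alone in limma 3.58.1 under R 4.3.3, through lmFit and eBayes, with Benjamini-Hochberg adjustment over all and a threshold of 0.05. Intervals are 95% limits from this fit. Single genes also had a two-sided exact permutation test, whose 70 arrangements allow no p below 0.0286. Replicate numbers did not pair the mice. Replicates are numbered mice, but no label gives litters or separate runs, so p-values measure only the spread between the arrays, part of which may be technical. The pipeline was tested on simulated data.

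Membership follows from symbols alone, but the gene family, its members and the lists were chosen with earlier results of these data known. Given in every mouse were the immune subunits, Psmb6, Psmb7, members with unadjusted p under 0.05 and the extremes of each role, except Psma8, given as a range. Of each list the 3 genes of smallest p and a fixed few were named. The companion list genes shown in every mouse, and the members given in ranges, were picked afterwards. Promoters are from RefSeq. Figures used matplotlib 3.10.9.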

Additional observations from a re-analysis of the deposited data

Results flagged for a closer look

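In 7 of 180 groups of 4 mice examined, 1 mouse lay far from the other 3 by Dixon's criterion, fewer than the 1 in 20 that chance gives. Of the proteasome genes, Psmd14 was 8.88 in GRBATKO 3 against 8.65 to 8.69 in the other GRBATKO mice, Psmd6 was 7.87 in control 1 with control mice 2 to 4 at 8.03 to 8.05, and Psmb11 was 2.89 in control 4 against 3.14 to 3.18. Of the markers, Nkg7 was 3.31 in GRBATKO 3 against 3.78 to 3.87. The B cell gene Cd79b was 5.73 in GRBATKO 2 against 3.80 to 4.03. The muscle genes Myh4 and Pvalb were 6.99 and 5.62 in GRBATKO 4 against 2.30 to 2.67 and 2.53 to 2.77.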

How the results depend on the processing

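No member and no companion gene passed an adjusted p of 0.05 in any of the 19 alternative fits by limma, and the lowest adjusted p among the members ran from 0.257 with a pseudocount of 16 to 0.710 without GRBATKO 3. The members with an unadjusted p under 0.05 numbered 1 (Psmd9) after repeated quantile normalization, with a replicate block and with array column as a block, and 0 to 2 with 1 mouse left out. They numbered 4 with an intensity trend and with the pseudocount (Psmc6 added), and 4 without control 1 and control 4 (Psmb8, Psmb9, Psmd9 and Psme1). The share of all probe sets under that p, 8.62%, was taken in the main fit only. Whether these counts exceed the background of their own fits cannot be read. Correlations of same-numbered mice were -0.06 to 0.09, so the block was not taken as a pairing. The median difference of the immune subunits was -0.28 without control 1 and control 4, a choice added after seeing the data, and -0.17 to -0.05 with 1 mouse left out. The count of members with an interval past 1.5-fold was 1 (Psmb9) with the ordinary t statistic, 2 (Psmb8 and Psmb9) without control 1 and control 4, and 0 to 1 with 1 mouse left out. Of the 19 members given in every mouse or, for Psma8, as a range, 13 kept their sign in all fits. Nr3c1, at -0.86, missed the threshold with the ordinary t statistic (-0.86, adjusted p = 0.0710), with the replicate block (-0.86, adjusted p = 0.157), and without control 1 and control 4 (-0.94, adjusted p = 0.0624), and ran from -0.90 to -0.82 with 1 mouse left out, with an adjusted p of 0.0525 without GRBATKO 2. Over all probe sets 5 passed, against 30 with an intensity trend, 14 without dim probe sets and 12 with the pseudocount, and 1 with the ordinary t statistic and with the replicate block.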
